A study of Mus musculus with 2 samples.

Results

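The insulin and amylin genes are described here in islet cells of 2-week-old mice. The 3 genes *Ins1*, *Ins2* and *Iapp* were chosen by their symbols from 31053 genes, and all 3 were measured in both libraries. The study profiled dissociated islets of wild type (WT) mice and of *Npc1*-/- littermates on a C57BL/6J background by droplet-based single cell RNA sequencing, with 1 library per genotype. Each library was a pool of islets from 3 female mice, and the *Npc1*-/- mice lacked the gene in every tissue from conception. Cells without NPC1 accumulate cholesterol in their lysosomes. Because each genotype had 1 library, no test between genotypes was possible, and every interval given is a 95% interval that covers counting error only. Differences between the animals, the isolations and the library preparations cannot be told apart from genotype.

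Insulin is the hormone of islet β cells that lowers blood glucose. Mice carry a pair of insulin genes, *Ins2*, which has the ancestral structure, and *Ins1*, a retroposed copy. Amylin, the product of *Iapp*, is stored and secreted together with insulin in β cell granules, and it slows gastric emptying and promotes satiety. *Iapp* transcripts have also been found in somatostatin-producing δ cells of rodents. α cells make glucagon (*Gcg*), δ cells make somatostatin (*Sst*), and PP cells make pancreatic polypeptide (*Ppy*), while peptide YY (*Pyy*) is made by several endocrine cells of young islets.

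In the GENCODE annotation of GRCm38, *Ins1* (ENSMUSG00000035804) lies on the plus strand at chr19:52264297-52265476 and its transcript has 2 exons. *Ins2* (ENSMUSG00000000215) lies on the minus strand within chr7:142678656-142743381, and its main transcript has 3 exons. *Iapp* (ENSMUSG00000041681) lies on the plus strand at chr6:142298423-142303961 and its transcript has 3 exons. The 250 bases before the start sites of *Ins1* and *Iapp* are shown because the transcription factors listed further below are known to bind promoters of these genes. Capitals mark 2 short motifs searched on both strands, TAAT, the core of the A box bound by homeodomain proteins such as PDX1, and CATCTG, an E box bound by NEUROD1. The sequences are from RefSeq on GRCm38.p6, plus strand, at chr19:52264047-52264296 for *Ins1* and chr6:142298175-142298424 for *Iapp*.
Ins1: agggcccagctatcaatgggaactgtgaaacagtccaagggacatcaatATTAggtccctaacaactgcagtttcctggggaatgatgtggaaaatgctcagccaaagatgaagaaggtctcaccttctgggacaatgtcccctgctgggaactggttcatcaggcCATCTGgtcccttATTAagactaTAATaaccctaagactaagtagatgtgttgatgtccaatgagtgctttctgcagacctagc
Iapp: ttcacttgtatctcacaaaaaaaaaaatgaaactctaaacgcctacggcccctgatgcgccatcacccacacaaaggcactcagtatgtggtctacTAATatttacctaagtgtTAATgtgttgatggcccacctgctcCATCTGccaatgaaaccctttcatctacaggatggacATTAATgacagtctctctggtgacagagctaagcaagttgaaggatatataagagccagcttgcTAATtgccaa
The *Ins1* window held TAAT in 3 places and CATCTG in 1 place, 84 bases before the start site. The *Iapp* window held TAAT in 5 places, 2 of which overlap each other, and CATCTG in 1 place, 111 bases before the start site. Of 32851 mouse promoter windows of the same length, 54.9% held TAAT, 14.4% held CATCTG and 8.91% held both. A match describes the letters and is not a measured binding site.

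The coding sequences of *Ins1* and *Ins2* were identical at 303 of 327 aligned bases, or 92.7%. The longest stretch that both share is shown because reads lying wholly within it fit either gene. It has 56 bases and is coding sequence within 1 exon in each gene, at chr19:52264894-52264949 (plus strand) and chr7:142678714-142678769 (minus strand) of GRCm38.
Shared by Ins1 and Ins2: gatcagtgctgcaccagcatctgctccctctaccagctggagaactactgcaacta
In the last 300 bases of the *Ins1* transcript, 0 of 271 windows of 30 bases also occur in *Ins2*. In the last 300 bases of *Ins2*, 50 of 271 such windows also occur in *Ins1*. The annotated *Ins1* transcript has 526 bases after its stop codon and that of *Ins2* has 54. The last 300 bases of *Ins1* thus hold no coding sequence, and 0 shared windows follows from the annotation. Where the reads of *Ins1* lie was not checked, so the windows do not show which gene's reads are shared. How many reads from shared sequence the counting left out or gave to the other gene is not known. The absolute ratio of *Ins1* to *Ins2* is therefore uncertain. The counting was the same in both libraries.

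The files held 8569 barcodes and 114324626 UMIs (counted molecules) for WT and 7646 barcodes and 127122035 UMIs for *Npc1*-/-. A barcode was kept if it had over 1000 genes and less than 50000 UMIs, with mitochondrial genes below 10% and haemoglobin genes no higher than 0.1% of its UMIs. These limits kept 4628 WT barcodes with a median of 18905 UMIs and 4269 *Npc1*-/- barcodes with a median of 21381. The smallest total of any barcode was 500 UMIs, so there were 0 barcodes under 500 UMIs from which free RNA could be read directly. The libraries shared 12 barcodes, of which 3 were kept in both. *Npc1* had 790 UMIs in kept WT barcodes and 391 in kept *Npc1*-/- barcodes, a ratio of UMIs per 1000000 UMIs (CPM) of 0.493 (0.436 to 0.558). Whether the counted end of *Npc1* lies outside the deleted part was not determined, so this ratio does not settle the label.

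Classes were set by the leading hormone and are called by it. Insulin cells had at least 20% of their UMIs in *Ins1* and *Ins2*, and this class held 1806 of 4628 WT barcodes (39.0%) and 1807 of 4269 *Npc1*-/- barcodes (42.3%). *Gcg*-led, *Sst*-led and PP-led cells had at least 10% of their UMIs in *Gcg*, in *Sst*, or in *Ppy* and *Pyy* together. They numbered 1048, 189 and 410 in WT and 857, 141 and 439 in *Npc1*-/-. Endothelial cells (424 and 428) and stellate cells (285 and 316) were chosen by their own markers among barcodes under all of these hormone limits. They do not make insulin and served as a measure of free RNA, the RNA from broken cells that enters every droplet. The other β cell markers were detected where insulin led. The 8 markers *Slc2a2*, *Nkx6-1*, *Mafa*, *Ucn3*, *G6pc2*, *Pdx1*, *Trpm5* and *Slc30a8* summed to 2004 CPM in WT and 1751 CPM in *Npc1*-/- insulin cells, against 97.7 and 46.2 CPM in endothelial cells. *Gcg*-led cells held 738 and 726 CPM of them, of which *Slc30a8* alone gave 601 and 607. The other 7 markers summed to 137 and 119 CPM in *Gcg*-led cells, against 1483 and 1243 in insulin cells. PP-led is a name by hormone only, since 144 of the 410 WT and 162 of the 439 *Npc1*-/- cells of this class had at least 1% of their UMIs in *Sst*. Doublets were left in, and values without the likeliest ones are given at the end.

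The share of insulin in a barcode's UMIs sets the class of insulin cells, so its spread over kept barcodes is a description. In WT, 847 kept barcodes had under 1% of their UMIs in *Ins1* and *Ins2*, 1208 had 1 to 2%, and 1135 had 50 to 60%. In *Npc1*-/-, these ranges held 1650, 592 and 909 barcodes. Between 10 and 20% lay 21 and 12 WT barcodes in steps of 5 points, and 17 and 16 *Npc1*-/- barcodes, just outside the limit of the class. Just inside it, from 20 to 25%, were 8 WT and 39 *Npc1*-/- barcodes, and from 25 to 30% there were 31 and 59. None of these ranges was empty in either library, so the limit does not fall in a gap.

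**Figure D1:**
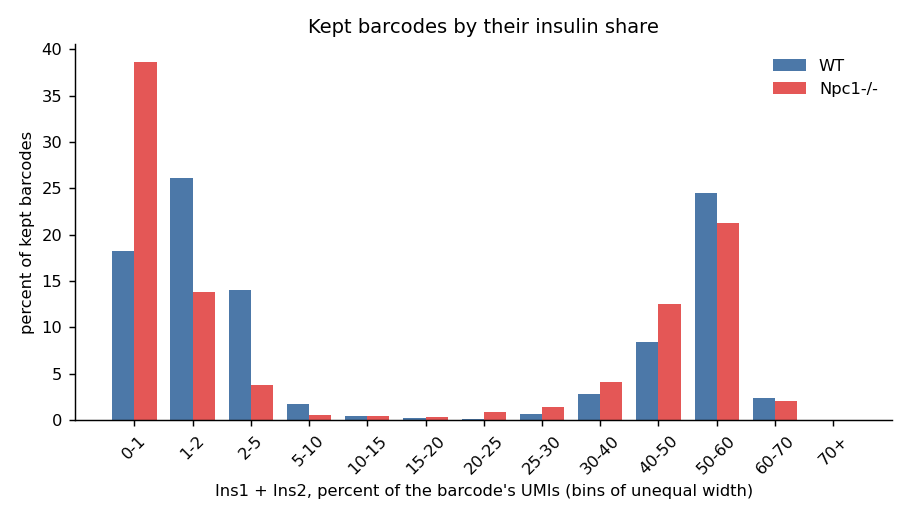
Percent of kept barcodes in each library (y axis) by the percent of a barcode's UMIs that were *Ins1* or *Ins2* (x axis, bins of unequal width), with WT and *Npc1*-/- bars side by side. Few barcodes fell from 10 to 25%, and the low bins differ between libraries, with 18.3% of WT and 38.7% of *Npc1*-/- barcodes under 1%.

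In insulin cells, *Ins2* gave the most UMIs, *Ins1* fewer and *Iapp* the fewest of the 3 genes, in both libraries. *Ins2* made up 35.0% of all UMIs of WT insulin cells and 33.2% of those of *Npc1*-/- insulin cells. *Ins1* made up 17.1% and 16.4%. *Iapp* made up 4.50% and 4.42%. Each counted molecule is read from its 3′ end, so these counts do not grow with gene length and are compared between genes as counted molecules. Between *Ins1* and *Ins2* the uncertainty from shared sequence given above remains. Per cell, the median was 10910 *Ins2* UMIs in WT and 10081 in *Npc1*-/-. The median was 5269 and 4999 for *Ins1*. It was 1338 and 1309 for *Iapp*. The 5th and 95th percentiles of *Iapp* were 530 and 2270 UMIs in WT and 418 and 2200 in *Npc1*-/-, so the cells of the 2 libraries overlapped over most of their range.
Both insulin genes together accounted for 52.0% of the UMIs of WT insulin cells and 49.6% of those of *Npc1*-/- insulin cells. The difference was -2.46 points (-2.48 to -2.44). This share also chose the cells, so it is a description. In cells chosen by the other β cell markers without insulin or amylin, 1687 in WT and 1606 in *Npc1*-/-, the difference was -2.38 points. The 5th percentile of the share was 35.3% in WT and 29.8% in *Npc1*-/-, while the 95th percentiles differed by less, so the libraries were farther apart among cells with little insulin than among cells with much of it. Total UMIs were alike in both, with medians of 30550 and 30111.

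The balance of the 2 insulin genes was nearly the same in both libraries. *Ins1* made up 32.8% of the insulin UMIs of WT and 33.0% of those of *Npc1*-/- insulin cells, or 0.488 and 0.493 *Ins1* UMIs for each *Ins2* UMI. The difference was 0.219 points (0.194 to 0.243), and it turned to -0.0985 points when cells with 50000 UMIs or more were added. The middle 90% of WT cells ran from 27.4 to 40.4% *Ins1*, around a median of 32.5%. In *Npc1*-/- they ran from 26.6 to 44.1%, around a median of 32.7%. The SD between cells was 5.19 points in WT and 6.10 in *Npc1*-/-, while counting alone would give 0.426 and 0.452 points. The spread between cells was thus over 10 times the counting error, and far wider than the difference between libraries.
Amylin relative to insulin was also close between the libraries. There were 8.66 *Iapp* UMIs per 100 insulin UMIs in WT and 8.92 in *Npc1*-/- insulin cells, a ratio of 1.03. The medians over cells were 8.68 and 8.76, and the 95th percentiles were 13.0 and 15.8, so the upper tail was longer in *Npc1*-/-. Among the 3 genes' UMIs, the *Iapp* share had an SD between cells of 2.12 points in WT and 2.80 in *Npc1*-/-, against 0.235 and 0.251 from counting.
The 3 genes moved together from cell to cell when set against the UMIs of all non-hormone genes. Over the insulin cells, Spearman's rho between *Ins1* and *Ins2* was 0.77 in WT and 0.76 in *Npc1*-/-. It was 0.53 and 0.48 between insulin and *Iapp*. These values share a denominator and a library, and are descriptive. The *Ins1* share of insulin and the *Iapp* share of the 3 genes had rho of -0.027 and 0.028, so these shares were nearly uncorrelated over cells.

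**Figure D2:**
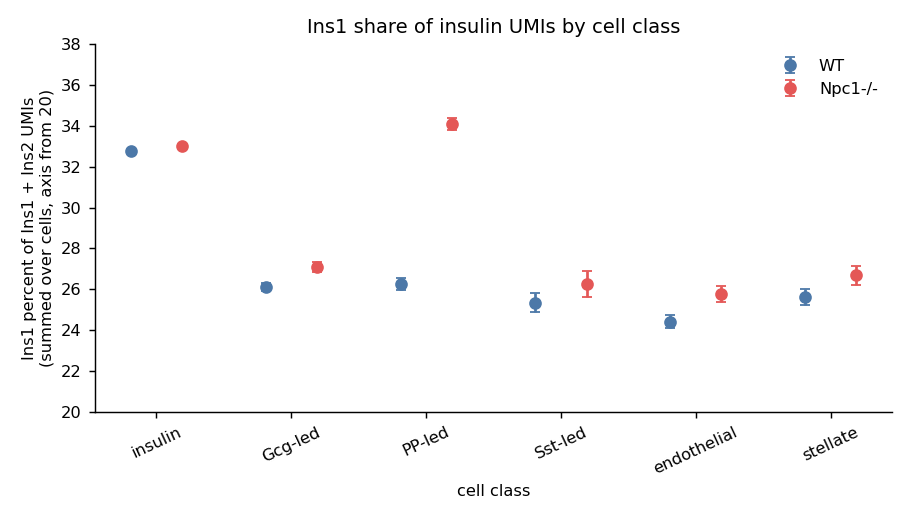
*Ins1* as a percent of *Ins1* and *Ins2* UMIs, summed over the cells of each class (x axis), in WT and *Npc1*-/- (colours), with exact 95% counting intervals. The y axis starts at 20. Insulin cells lay at 32.8% and 33.0%, the other classes between 24.4% and 27.1%, except PP-led cells of *Npc1*-/- at 34.1%.

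Insulin cells with more *Ppy* and *Pyy* had a higher *Ins1* share of their insulin, in both libraries, and those with the most had less insulin. *Ppy* and *Pyy* are abundant in islet cells soon after birth. In WT, the *Ins1* share of insulin was 31.2% in the 324 cells with *Ppy* and *Pyy* under 0.1% of non-hormone UMIs, then 32.2% and 33.9%, and 35.0% in the 219 cells at 5% or more. The *Npc1*-/- cells had 31.2% in 163 cells, then 31.8% and 33.6%, and 35.0% in 417 cells. The 2 libraries differed far less in any stratum than the strata did within a library. The number of insulin cells in the top stratum differed between libraries, 219 of 1806 against 417 of 1807. Median total UMIs fell along these strata, from 33650.5 to 28112 in WT and from 34144 to 27356 in *Npc1*-/-. Split by total UMIs instead, insulin cells of 20000 to 30000 UMIs had an *Ins1* share of 33.3% in WT and 34.1% in *Npc1*-/-. Both libraries had 32.4% at 30000 to 40000 UMIs. The *Ins1* share was 34.9% in WT and 35.1% in *Npc1*-/- under 10000 UMIs, and 35.5% and 34.5% at 10000 to 20000. At 40000 to 50000 UMIs it was 32.5% and 32.3%. Insulin per 1000 non-hormone UMIs rose from 1181 to 1358 in WT between 20000 to 30000 and 30000 to 40000 UMIs. In *Npc1*-/- it rose from 1045 to 1255. At 40000 to 50000 UMIs it was lower again, 1104 in WT and 1068 in *Npc1*-/-. The part of depth was not tested.
Insulin UMIs per 1000 non-hormone UMIs were 1310, 1313, 1237 and 910 from the lowest to the highest stratum in WT. The *Npc1*-/- values were 1269, 1277, 1141 and 858, lower than in WT in all 4 strata. *Iapp* per 100 insulin UMIs was 8.71, 8.54, 8.51 and 9.54 in WT. It was 8.52, 8.34, 8.57 and 10.99 in *Npc1*-/-. For this ratio the libraries were farthest apart in the stratum with the most *Ppy* and *Pyy*, where *Npc1*-/- had more *Iapp* for its insulin. For insulin per 1000 non-hormone UMIs they were farthest apart at 1 to 5%. Of the insulin cells, 14 in WT and 39 in *Npc1*-/- also met the limit for PP-led cells, and without barcodes over a pair of hormone limits the ratio of *Iapp* per 100 insulin UMIs between libraries was 1.02. Whether doublets of an insulin cell and another endocrine cell take part in these strata was not tested.
*Ucn3*, the urocortin gene that marks mature β cells, ran the other way. The *Ins1* share of insulin was 35.5% in the 212 WT insulin cells with 0 *Ucn3* UMIs and 31.3% in the 214 cells with at least 10 *Ucn3* UMIs per 10000 non-hormone UMIs. The same strata of *Npc1*-/- had 35.0% in 425 cells and 31.1% in 105 cells. Insulin UMIs per 1000 non-hormone UMIs were 996 and 1389 in the same WT strata. They were 930 and 1338 in the *Npc1*-/- strata. Cells without *Ucn3* had fewer UMIs in all, with medians of 24880 in WT and 26054 in *Npc1*-/-, so a cell can fall into that stratum for want of depth. *Iapp* per 100 insulin UMIs spanned only 8.46 to 8.93 over the 5 *Ucn3* strata of WT. It fell from 9.62 in cells without *Ucn3* to 8.40 at 5 to 10 UMIs per 10000 in *Npc1*-/-, and was 8.57 in the top stratum.

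**Figure D3:**
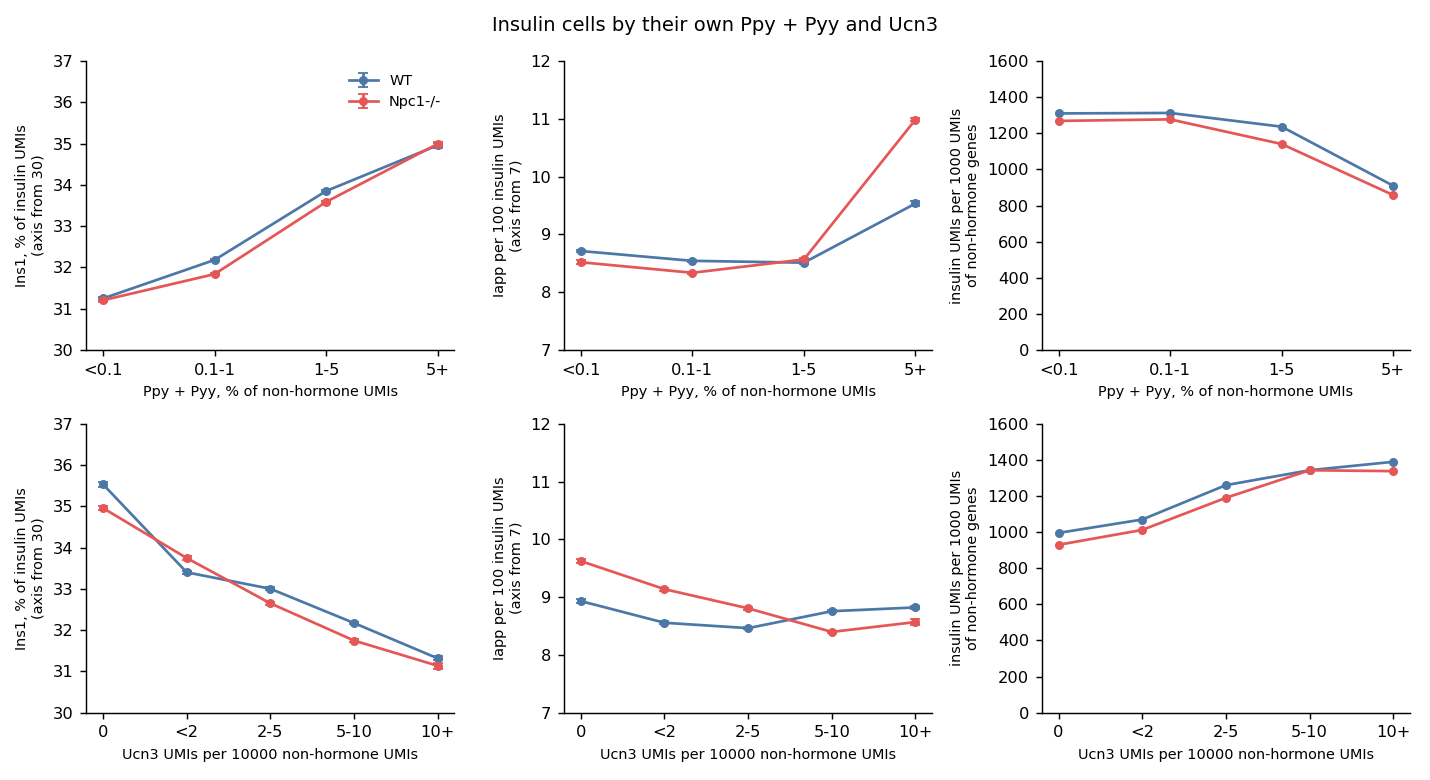
Insulin cells split by *Ppy* and *Pyy* (top row) and by *Ucn3* (bottom row). The columns show *Ins1* as a percent of insulin UMIs (axis from 30), *Iapp* UMIs per 100 insulin UMIs (axis from 7) and insulin UMIs per 1000 non-hormone UMIs (axis from 0), for WT and *Npc1*-/- (colours), with 95% counting intervals in the first 2 columns. The *Ins1* share rose from 31.2% to 35.0% with *Ppy* and *Pyy* in both libraries, and *Iapp* at 5% or more was 9.54 in WT and 10.99 in *Npc1*-/-.

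Insulin cells were also split by the insulin share of their UMIs. In the 39 WT cells with 20 to 30% insulin there were 12.9 *Iapp* UMIs per 100 insulin UMIs, and in the 113 cells with 60% or more there were 6.87. The *Npc1*-/- values were 16.4 in 98 cells and 6.51 in 91 cells. *Iapp* per 1000 non-hormone UMIs went from 60.4 to 123 in WT and from 72.1 to 122 in *Npc1*-/- between the same strata. Insulin both set these strata and is in the denominator of the ratio, so the values are a description and do not show how amylin scales with insulin. Insulin cells with 5 to 7.5% mitochondrial UMIs had 9.65 and 9.72 *Iapp* UMIs per 100 insulin UMIs, against 8.33 and 8.63 at 2.5 to 5%. Their *Ins1* share was 31.7% and 31.9%, against 33.2% and 33.5%. At 7.5 to 10%, the 60 WT and 76 *Npc1*-/- cells had 9.34 and 8.69 *Iapp* UMIs per 100 insulin UMIs and an *Ins1* share of 31.9% and 32.5%. Under 2.5%, the 30 *Npc1*-/- cells had 6.30 *Iapp* UMIs per 100 insulin UMIs and an *Ins1* share of 35.1%, while WT held only 8 cells. These were the lowest *Iapp* ratio and the highest *Ins1* share of all *Npc1*-/- strata by mitochondrial share. Over the 3 strata from 2.5% up there was no steady trend. The part of RNA quality was not tested.

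In the classes that do not make insulin, a nearly constant number of insulin molecules was found in each droplet. The median was 163 insulin UMIs per WT endothelial cell and 108 per *Npc1*-/- endothelial cell. It was 167 and 110 in stellate cells. In these 2 classes together, the median stayed at 156, 167, 163 and 157 insulin UMIs in WT as total UMIs rose from under 5000 to over 20000. For *Npc1*-/-, it was 95, 109, 109 and 118. Free insulin RNA was thus lower in the *Npc1*-/- library, and in both libraries it changed little while total UMIs grew several-fold.
*Gcg*-led, *Sst*-led and PP-led cells had insulin near this level. Their medians were 180, 179 and 185 insulin UMIs per barcode in WT. The *Npc1*-/- medians were 130, 127 and 130. Of WT *Gcg*-led cells, 19.9% lay above the 95th percentile of endothelial cells, 202 insulin UMIs, and 25.6% of *Npc1*-/- *Gcg*-led cells lay above theirs, 147 UMIs. The excess over endothelial cells was small beside the 16181 and 15115 insulin UMIs of the median insulin cell. *Sst*-led cells lay above these limits in 24.9% and 19.9%, and PP-led cells in 29.0% and 28.9%. All kept barcodes of the named endocrine classes held insulin UMIs, which near the free RNA level is no sign of insulin expression. Some PP-led cells lay far above that level, with 95th percentiles of 345 insulin UMIs in WT and 698 in *Npc1*-/-. Whether these cells express insulin was not tested.
The *Ins1* share gave a second reading of this RNA. It was 24.4% of insulin UMIs in WT endothelial cells (24.1 to 24.7) and 25.8% in *Npc1*-/- endothelial cells (25.4 to 26.2). It was 25.6% and 26.7% in stellate cells. *Gcg*-led cells had 26.1% and 27.1%, and *Sst*-led cells had 25.4% and 26.2%. These classes lay within 2 points of endothelial cells and well under the 32.8% and 33.0% of insulin cells. Free insulin RNA was thus poorer in *Ins1* than the insulin cells were. Barcodes with 1000 genes or fewer and under 10% mitochondrial UMIs lay between, at 28.6% in WT and 30.1% in *Npc1*-/-. Of these, 790 of 1119 in WT and 206 of 595 in *Npc1*-/- had at least 20% insulin.
PP-led cells of *Npc1*-/- were the exception, with 34.1% *Ins1* against 26.2% in WT. It was high in the cells of this class with much insulin. In the 36 *Npc1*-/- PP-led cells with 2 to 20% insulin it was 41.6%, and in the other 403 cells it was 26.8%. The 392 WT PP-led cells under 2% insulin had 25%. The median over all PP-led cells was 24.6% in WT and 26.2% in *Npc1*-/-.

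**Figure D4:**
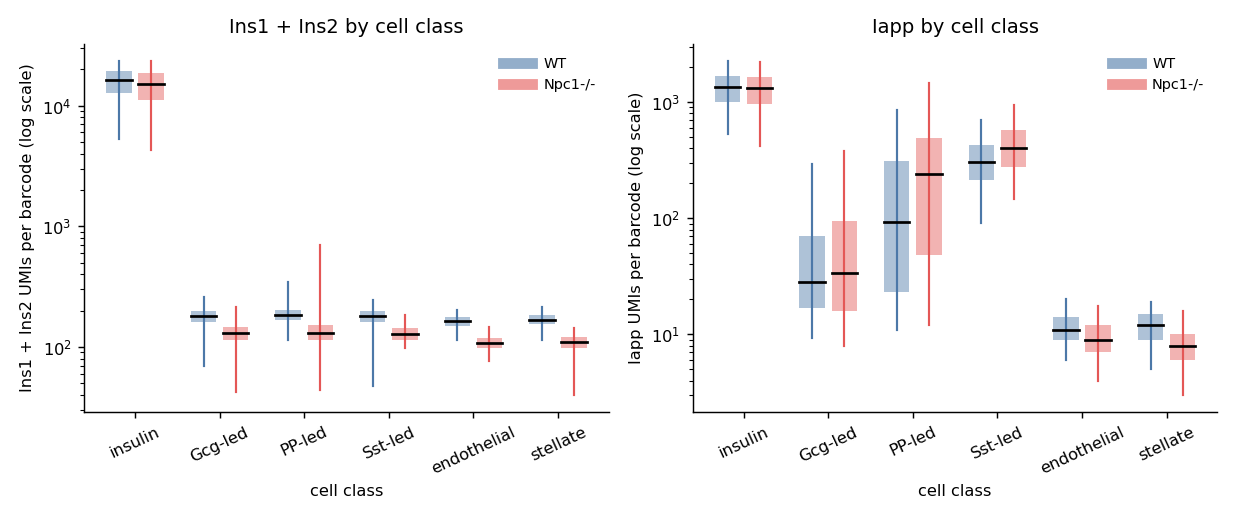
*Ins1* and *Ins2* UMIs per barcode (left) and *Iapp* UMIs per barcode (right), on log axes, by class in WT and *Npc1*-/-. Black lines are medians, boxes run from the 25th to the 75th percentile and thin lines from the 5th to the 95th. Median insulin outside insulin cells sat near the endothelial level (163 and 108). Median *Iapp* rose from *Gcg*-led (28 and 34) over PP-led (93.5 and 242) to *Sst*-led cells (307 and 401).

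*Iapp* was found above the free RNA level in all 3 of the other endocrine classes, while their median insulin lay near that level. The order of the *Iapp* share of UMIs was the same in both libraries at its upper end. It was 4.50% in WT and 4.42% in *Npc1*-/- insulin cells, 2.34% and 2.63% in *Sst*-led cells, 1.13% and 1.87% in PP-led cells, and 0.395% and 0.449% in *Gcg*-led cells. It was 0.144% and 0.0851% in endothelial cells, and 0.165% and 0.115% in stellate cells. Median *Iapp* UMIs per barcode in endothelial and stellate cells were close, 11 and 12 in WT and 9 and 8 in *Npc1*-/-. Their median total UMIs were 7590.5 and 6748 in WT, and 10068.5 and 6885.5 in *Npc1*-/-. In macrophages the *Iapp* share was 0.236% in 58 WT cells and 0.0625% in 34 *Npc1*-/- cells.
A single source of free RNA would keep *Iapp* and insulin in the same ratio in every class. That ratio was 8.62 *Iapp* UMIs per 100 insulin UMIs in WT endothelial cells and 9.11 in *Npc1*-/- endothelial cells. It was 7.30 and 7.72 in stellate cells, close to the 8.66 and 8.92 of insulin cells. All of these are ratios of sums. Medians over endothelial cells were 7.19 in WT and 8.86 in *Npc1*-/-, so the WT sum lay above the median cell. *Sst* was at 955 CPM in WT endothelial cells, against 152 in *Npc1*-/- endothelial cells and 87.9 in WT stellate cells. Whether some WT endothelial barcodes also held RNA of an endocrine cell was not tested. Within endothelial and stellate cells together the summed ratio was not constant over depth. From under 5000 to over 20000 total UMIs, it was 7.25, 7.10, 8.16 and 25.8 in WT, the last over 28 cells. It was 7.44, 7.78, 9.28 and 11.5 in *Npc1*-/-, the last over 63 cells. The 28 WT cells had medians of 13.5 *Iapp* and 157 insulin UMIs, against 13 and 163 at 10000 to 20000 UMIs. These WT medians thus did not change as the summed ratio did. In *Npc1*-/- the medians were 14 and 118 over 20000 UMIs, against 10 and 109 at 10000 to 20000.
*Sst*-led cells had the highest ratio. It was 190 *Iapp* UMIs per 100 insulin UMIs in WT, 22.0 times the endothelial value (21.4 to 22.7). It was 338 in *Npc1*-/-, or 37.1 times (35.8 to 38.4). All 189 WT and all 141 *Npc1*-/- *Sst*-led cells lay above the 95th percentile of endothelial cells, which was 12.2 in WT and 14.6 in *Npc1*-/-. The 5th percentile of the *Sst*-led cells was 72.9 and 129, so the classes hardly overlapped. These cells also held *Ppy* and *Pyy*, at 5% of UMIs or more in 182 of 189 and 138 of 141 cells.
PP-led cells had 99.1 *Iapp* UMIs per 100 insulin UMIs in WT and 165 in *Npc1*-/-, or 11.5 and 18.1 times the endothelial values. Of these cells, 74.1% in WT (69.6 to 78.3) and 91.1% in *Npc1*-/- (88.1 to 93.6) lay above the 95th percentile of endothelial cells. These intervals count cells, which are not replicates of a genotype. The limit was each library's own, 12.2 in WT and 14.6 in *Npc1*-/-. The class was mixed. Its cells with at least 1% *Sst* had 166 in WT and 284 in *Npc1*-/-, near the *Sst*-led values. Its cells with under 0.1% *Sst* had 61.9 and 125, with medians over cells of 14.97 in 261 WT and 57.7 in 272 *Npc1*-/- cells. The values were skewed, since most of these cells lay well below the ratio of the sums.
*Gcg*-led cells had 36.8 *Iapp* UMIs per 100 insulin UMIs in WT and 60.9 in *Npc1*-/-, or 4.27 and 6.69 times the endothelial values. Of them, 61.9% and 71.5% lay above the 95th percentile of endothelial cells, and the cells were widely spread, from 6.42 to 144 in the middle 90% of WT and from 7.63 to 261 in *Npc1*-/-. The ratio rose with *Ppy* and *Pyy*. In WT, it was 16.0 in the 53 cells under 0.1% of UMIs, 20.6 at 0.1 to 1%, 39.0 at 1 to 5% and 75.4 in the 152 cells at 5% or more. In *Npc1*-/-, the last 3 of these strata had 32.6, 53.5 and 108, and the first held only 16 cells and is given no value.

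**Figure D5:**
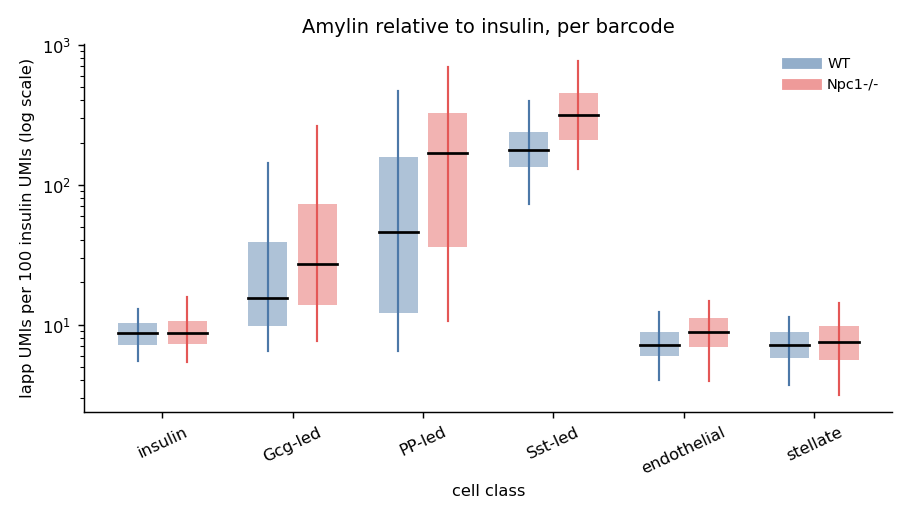
*Iapp* UMIs per 100 insulin UMIs in each barcode (log y axis) by class in WT and *Npc1*-/-. Black lines are medians, boxes run from the 25th to the 75th percentile and thin lines from the 5th to the 95th. Insulin, endothelial and stellate cells had medians between 7.19 and 8.86, and *Sst*-led cells 178 in WT and 315 in *Npc1*-/-.

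The median insulin of these classes was near the free RNA level, and that level was lower in *Npc1*-/-. In *Gcg*-led and *Sst*-led cells the summed *Iapp* to insulin ratios of the 2 libraries thus differ mainly through their denominator. The insulin share of summed UMIs was 1.07% (WT) against 0.736% (*Npc1*-/-) in *Gcg*-led cells. For *Sst*-led cells it was 1.23% against 0.780%. In PP-led cells the shares were nearly equal, 1.14% against 1.13%. Over all PP-led cells the summed ratios therefore differ through *Iapp*, although their median insulin per barcode was lower in *Npc1*-/-. Among PP-led cells under 2% insulin, both parts of the ratio differed. Insulin per 1000 non-hormone UMIs was 16.1 in WT and 10.6 in *Npc1*-/- there, and *Iapp* was 18.2 and 25.9. *Iapp* itself can be compared as CPM. In *Gcg*-led cells it was 3948 CPM in WT and 4487 in *Npc1*-/-. In *Sst*-led cells it was 23373 and 26336. In PP-led cells it was 11277 and 18719, the widest difference of the 3 classes at 1.66-fold. The 36 *Npc1*-/- PP-led cells with 2 to 20% insulin had 5.66% of their UMIs in *Iapp*. Among PP-led cells under 2% insulin, 392 in WT and 403 in *Npc1*-/-, *Iapp* was at 10521 and 15448 CPM, or 1.47-fold. In all PP-led cells the 8 other β cell markers, all detected in both libraries, summed to 265 CPM in WT and 315 in *Npc1*-/-. The 9 stellate markers, also all detected, summed to 15.7 and 55.6 CPM. The part of these cells in the *Iapp* difference was not tested.
Ratios between libraries were also set against the median gene of each class, that is, the log2 ratio of CPM minus the median over all genes that reached 5 CPM in WT or *Npc1*-/-. In insulin cells this median was 0.12 over 8834 genes. Relative to it, *Ins1* was at -0.18, *Ins2* at -0.19 and *Iapp* at -0.15 in *Npc1*-/- against WT. None of the 3 was 1.5-fold from the median gene, and 2.68% of all genes were. On CPM alone the 3 values were -0.060, -0.075 and -0.028, so the size of these differences depends on the scale, and their direction does not.
In *Gcg*-led cells *Iapp* was at 0.16 (0.14 to 0.17), and 1.78% of genes there were 1.5-fold from the median gene. In *Sst*-led cells it was at 0.16 (0.15 to 0.18), where 11.9% were. In PP-led cells it was at 0.67 (0.65 to 0.68), past 1.5-fold, where 4.33% of genes were. In the PP-led cells under 2% insulin it was at 0.49 (0.48 to 0.50), which is short of 1.5-fold, while in *Gcg*-led and *Sst*-led cells under 2% insulin it stayed at 0.16. *Ins1* and *Ins2* were at -0.52 and -0.59 in *Gcg*-led cells, at -0.62 and -0.68 in *Sst*-led cells, and at 0.31 and -0.23 in PP-led cells. They were at -0.77 and -0.87 in endothelial cells, where 7.19% of genes were 1.5-fold from the median gene. Past 1.5-fold were thus *Ins2* in *Gcg*-led cells, both insulin genes in *Sst*-led cells and all 3 members in endothelial cells, besides *Iapp* in the sum of all PP-led cells. In endothelial cells *Iapp* was lower as well, at -0.77, so on this scale the 3 genes stood lower in *Npc1*-/- where they were free RNA. Endothelial cells had a median of 7590.5 UMIs in WT and 10068.5 in *Npc1*-/-, and CPM of a fixed number of molecules falls as total UMIs grow. Per barcode, the median was 11 *Iapp* UMIs in WT and 9 in *Npc1*-/-, and 163 and 108 insulin UMIs. Stellate cells, with medians of 6748 and 6885.5 UMIs, had *Iapp* at 1652 CPM in WT and 1152 in *Npc1*-/-. *Ins1* was at 5798 and 3985 CPM there, and *Ins2* at 16845 and 10945 CPM. The part of depth in the ratios between libraries was not tested.
The hormones that chose the classes showed which differences were larger than those of insulin. In insulin cells *Ppy* was at 0.83 and *Pyy* at 0.63 relative to the median gene. *Gcg* was at -0.51 and *Sst* at -0.24 in the same cells, at levels of 3171 and 1573 CPM in WT. Free RNA is a part of these levels. Insulin cells that also met the limit for *Gcg*-led cells numbered 22 in WT and 13 in *Npc1*-/-. For *Sst*-led cells these numbers were 2 and 0, and for PP-led cells 14 and 39. The parts of free RNA and of these barcodes in the differences were not tested.

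Genes that serve the insulin and amylin genes were described from 4 lists in insulin cells, and 0 of their 38 members that reached 5 CPM were 1.5-fold from the median gene, against 2.68% of all genes. The median over all genes is 0 by construction. Of 13 transcription factors, 5 lay above the median gene and 8 below, with a median of -0.04. *Pdx1*, which binds the A boxes, was at -0.20 (141 CPM in WT and 133 in *Npc1*-/-). *Mafa*, an activator of insulin genes in mature β cells, was at -0.20 (198 and 187 CPM). *Nkx6-1*, which maintains β cell identity, was the lowest of the list at -0.33 (214 and 186 CPM). *Rfx6*, an endocrine factor of islet development, was the highest at 0.54 (20.3 and 32.2 CPM).
Of the 11 measured genes of prohormone entry, folding and processing, 9 lay below the median gene and 2 above, with a median of -0.08. *Hspa5*, the chaperone BiP of the endoplasmic reticulum, was the lowest at -0.55 (768 and 568 CPM). *Ero1lb*, an oxidase that drives disulfide bond formation in proinsulin, was at -0.31 (354 and 310 CPM). The convertases *Pcsk1* and *Pcsk2*, which cut proinsulin and proamylin, were at -0.20 and -0.08. *Pam*, which amidates the end of amylin, was the highest at 0.24 (102 and 131 CPM).
Of 9 granule genes, 5 lay above the median gene and 4 below. *Chga*, the granule protein chromogranin A, was at 0.57 (4534 and 7324 CPM), close to the limit of 1.5-fold. *Sytl4*, which tethers granules, was at -0.44 (104 and 83.1 CPM). *Slc30a8*, the zinc transporter that loads granules for insulin crystals, was at -0.15 (520 and 507 CPM).
Of 7 genes for receptors and degradation, 5 reached 5 CPM, and all 5 lay at or above the median gene. *Insr*, the insulin receptor, was at 0.42, with 509 UMIs in WT and 728 in *Npc1*-/-. *Ide*, the protease that degrades insulin and amylin, was level with the median gene at 0.00 (-0.16 to 0.17). *Calcr*, the calcitonin receptor that forms amylin receptors with RAMP proteins, had 0 UMIs in the insulin cells of both libraries, which allows up to 0.0550 CPM in WT and 0.0559 CPM in *Npc1*-/-. *Ramp1* was at 0.19 and *Ramp2* at 0.16.

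The genes most like the members across classes were found over 14 sums, 7 classes in each of 2 libraries, by Pearson's r of log2(CPM + 1) among 5631 genes. The sums share libraries and free RNA, and the values are descriptive. *Ins1* and *Ins2* also set the insulin class, so a high r between them is built in. *Ins1* and *Ins2* were most like each other (r = 0.997), followed by *Mafa* (0.975 and 0.986) and *Slc2a2*, the glucose transporter GLUT2 (0.974 and 0.975). *Trpm5*, a cation channel, and *Fam151a* came next for *Ins1*, and *Sytl4* and *Trpm5* for *Ins2*. The 5 genes nearest to *Iapp* were *Vstm2l* (0.985), the presynaptic scaffold gene *Pclo* (0.984), *Rasgrf1* (0.976), *Mlxipl* (0.976) and *Pdx1* (0.973).
From cell to cell within insulin cells, the likeness was weaker. By the lower Spearman's rho of the 2 libraries for shares of UMIs, among 1474 genes, *Ins1* was most like *Ins2* (0.340), then *Prss53* (0.148), *Sdf2l1* (0.129), *Ero1lb* (0.106) and *Hyou1* (0.105). *Ins2* was most like *Trpm5* (0.385), *Ins1* (0.340), *Prss53* (0.331), *Ucn3* (0.329) and *Ero1lb* (0.294). *Iapp* was most like *Ftl1*, which encodes ferritin light chain (0.224), *Scg2* (0.219), *Mt1* (0.187), *Cd63* (0.172) and *mt-Co2* (0.167). The shares of a cell sum to a fixed total, which bears on each of these values, and depth differs from cell to cell.
Insulin and amylin were also found in barcodes outside the limits. Barcodes with 50000 UMIs or more, 167 in WT and 369 in *Npc1*-/- that met the limits on genes and mitochondrial UMIs, had 31.5% and 31.4% *Ins1* of insulin and 9.94 and 9.61 *Iapp* UMIs per 100 insulin UMIs. Barcodes with 10% mitochondrial UMIs or more, 2628 and 2395, had 29.7% and 30.7% *Ins1* and 8.51 and 9.14 *Iapp*. They held 10.0% and 8.01% insulin at the median. Barcodes with 1000 genes or fewer and under 10% mitochondrial UMIs, 1119 and 595, had 7.58 and 10.7 *Iapp* UMIs per 100 insulin UMIs, the widest gap between libraries of these 3 sets. This set also differed in make-up, with 27.0% and 17% insulin at the median. In it, 790 WT and 206 *Npc1*-/- barcodes had at least 20% insulin. The part of this make-up in the gap was not tested.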

How the data were processed

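The matrices that the authors deposited hold whole UMI counts for each gene in each barcode. Per the labels they came from Cell Ranger 3.1.0 with mm10, and they hold the barcodes called as cells. Seurat 4.0.3 is also named in the submitters' notes, but its output was not used here. The labels name the 3′ kit as version v3, and the paper's methods name another version. Raw counts were used without normalization, integration or correction for free RNA. Kept WT and *Npc1*-/- barcodes held 94096566 and 94392651 UMIs.

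The members, gene lists, class limits and alternatives were chosen with earlier results of these data known. Hormone classes needed 20% insulin or 10% of another leading hormone. Other classes needed at least 3 detected markers, 0.2% of UMIs in them, and 3 times the next list. Their barcodes also had to lie under the 20% limit for insulin and the 10% limits for the other hormones. Named genes were the members, the class hormones, *Npc1*, the 5 genes most like each member (at least 50 CPM, by the measures stated) and 4 lists of genes for transcription, processing, granules and receptors. Strata needed 20 cells.

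Counts were summed over the cells of a class. Shares have exact Clopper-Pearson intervals, ratios conditional binomial ones, and differences and ratios of these have intervals combined from them or on the log scale. All are at 95% and cover counting error only. Log2 ratios used CPM with 0.5 counts added. No test was made across genotypes, since cells are not replicates. The ratios and intervals were tested on simulated counts drawn with counting error only, so that test does not bear on the spread between cells. Scrublet in scanpy 1.11.5 scored doublets at an expected 0.8% per 1000 barcodes for an alternative (317 WT and 261 *Npc1*-/- barcodes). The work was done in Python 3.11.15 with pandas 2.3.3, scipy 1.17.1 and numpy 2.4.6. The TMM factor alone came from edgeR 4.0.16 under R 4.3.3. Alternatives were other cell filters, other limits for insulin cells, other scalings and stellate cells as the measure of free RNA.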

Additional observations from a re-analysis of the deposited data

Results flagged for a closer look

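Values on CPM, as log2 of *Npc1*-/- over WT, lay on opposite sides of 0 in another class and in insulin cells in 4 cases. *Ins1* was at 0.37 in PP-led cells and at -0.06 in insulin cells. *Iapp* was at 0.18 in *Gcg*-led, 0.17 in *Sst*-led and 0.73 in PP-led cells, and at -0.03 in insulin cells. With 1 library per genotype these differences between classes were not tested. For *Ins1*, PP-led cells of *Npc1*-/- with 2 to 20% insulin numbered 36 and those of WT 18, and the remaining PP-led cells had 26.8% and 25% *Ins1* of their insulin. For *Iapp*, the remaining PP-led cells had 15448 CPM in *Npc1*-/- and 10521 in WT, or 1.47-fold, against 1.66-fold in all PP-led cells. PP-led cells with at least 1% *Sst* numbered 162 and 144, and *Iapp* took 2.46% and 2.26% of their UMIs. Those with under 0.1% *Sst* had 1.59% in *Npc1*-/- and 0.647% in WT.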

How the results depend on the processing

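Of 132 alternative values for 21 results, 39 lay within the counting interval of the reported value, 90 lay outside it with the same direction, and 3 turned direction. The intervals are narrow because sums run to many molecules, so a value outside them need not be far away. The direction of the *Iapp* and insulin results held under all alternatives run. The 3 that turned were all differences in the *Ins1* share of insulin, namely *Npc1*-/- minus WT in insulin cells, and *Sst*-led minus endothelial cells in each library. In *Npc1*-/- the reported *Sst*-led difference of 0.472 points has an interval that spans 0 (-0.265 to 1.21). The cause was not tested. All values below keep the order of the report, with log2 values relative to the median gene given for *Ins1*, *Ins2* and *Iapp* in turn.

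With no upper limit on UMIs, the *Ins1* difference was -0.0985 points, *Iapp* per 100 insulin UMIs 1.03 times, the insulin difference -2.16 points, and the log2 values -0.18, -0.17 and -0.14. In PP-led cells, *Iapp* was then 10.1 times endothelial cells in WT and 12.3 times in *Npc1*-/-, with *Ins1* 3.63 and 9.36 points above. With over 2000 genes and under 5% mitochondrial UMIs, the *Ins1* difference was 0.345, the insulin difference -2.40, and the log2 values -0.16, -0.18 and -0.13. *Gcg*-led *Iapp* was 4.49 times in WT and 7.07 times in *Npc1*-/-, PP-led *Iapp* in WT 10.5 times, and PP-led *Ins1* in *Npc1*-/- 5.30 points above. With expected doublets removed, the *Ins1* difference was 0.319, *Iapp* 1.03 times, the insulin difference -2.78, and the log2 values -0.19, -0.21 and -0.17. *Gcg*-led *Iapp* was 4.09 and 6.10 times, *Sst*-led *Iapp* in WT 23.9 times and PP-led *Iapp* in *Npc1*-/- 20.5 times. *Ins1* in *Npc1*-/- was 0.533 points above endothelial cells in *Gcg*-led and 5.03 in PP-led cells. Without barcodes over 2 hormone limits, *Iapp* was 1.02 times, the insulin difference -2.31, and the log2 values -0.17, -0.19 and -0.15. *Iapp* was 4.08 and 6.19 times endothelial cells in *Gcg*-led, 20.9 and 32.3 times in *Sst*-led, and 9.18 and 15.2 times in PP-led cells, with PP-led *Ins1* in *Npc1*-/- 10.1 points above.

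With insulin cells taken from 10% insulin, *Iapp* was 1.03 times, the insulin difference -2.62, and the log2 values of *Ins1* and *Ins2* -0.19 and -0.20. From 30% insulin, these were 1.01 times, -1.74 points, and -0.14, -0.16 and -0.13. In cells chosen without insulin or amylin, the *Ins1* difference was 0.167, *Iapp* 1.02 times, the insulin difference -2.38, and the log2 values -0.18, -0.19 and -0.17. As means over cells, the *Ins1* difference was 0.341 points and *Iapp* 1.06 times. The log2 values were -0.20, -0.21 and -0.16 with the TMM factor, -0.060, -0.075 and -0.028 on CPM of all UMIs, -0.12, -0.14 and -0.092 on CPM of UMIs of genes other than islet hormones and *Iapp*, and -0.19, -0.20 and -0.16 with no limit on low counts.

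With stellate in place of endothelial cells, *Iapp* in WT and *Npc1*-/- was 5.04 and 7.89 times in *Gcg*-led, 26.0 and 43.7 times in *Sst*-led, and 13.6 and 21.4 times in PP-led cells. *Ins1* was then 0.519 and 0.394 points above in *Gcg*-led, -0.255 and -0.454 points in *Sst*-led, and 0.637 and 7.39 points in PP-led cells, so the *Ins1* share of *Sst*-led cells turned direction. With cells under 5% insulin only, *Ins1* was 0.584 and 2.05 points above endothelial cells in *Gcg*-led, 1.37 in *Npc1*-/- *Sst*-led, and 1.33 and 3.02 in PP-led cells. *Iapp* was then 7.07 times in *Npc1*-/- *Gcg*-led, and 12.8 and 26.2 times in PP-led cells. In an alternative chosen after seeing the data, cells under 2% insulin only, *Iapp* between libraries in PP-led cells went from 0.67 to 0.49 and no longer reached 1.5-fold. No paired analysis was possible because each genotype had 1 library.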
